A study of Mus musculus with 6 samples.

Results

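The co-repressor KAP1 had 539 promoter peaks in mouse ESCs that were shared by both hybrid lines and were overlapped by no ZFP57 peak. These regions are the autosomal KAP1 peaks of the JB1 line narrower than 3000 bp that overlapped a KAP1 peak of the BJ1 line by at least 1 bp, overlapped no ZFP57 peak of JB1 or BJ1, and lay within 1000 bp of the start of a protein-coding gene (mm9 assembly, GENCODE M1 annotation). Of the 38713 KAP1 peaks of JB1, 36174 were autosomal, 35042 of these were under the width limit, 30045 of these overlapped a BJ1 peak and 25881 of these overlapped no ZFP57 peak. Of these 25881 peaks, 539 lay at a promoter, which is 2.08%. This is near the 2.19% of autosomal bases on which a 600 bp peak could be centred to lie within reach of a start. The regions were thus chosen by the peak calls of the 4 antibody libraries and by the gene starts, and their presence in both lines, their lack of ZFP57 and their closeness to genes are not results.

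JB1 and BJ1 are male ESC lines from F1 hybrids of the JF1 (*Mus musculus molossinus*) and C57Bl/6 (B6) mouse strains, JB1 from the JF1 x B6 cross and BJ1 from the reciprocal B6 x JF1 cross. Both were grown without feeder cells in the presence of LIF, neither carries an engineered mutation or received a treatment by the labels, and each is a single cell line. Cross-linked chromatin was precipitated with an antibody against ZFP57 and with one against KAP1, with 1 library for each line and antibody. The 2 input libraries were not used here. With 1 library per line and antibody no test across samples was possible, and everything that follows describes these libraries.

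KAP1, also called TRIM28, does not bind DNA by itself. It is brought to chromatin by zinc-finger proteins with a KRAB domain, of which ZFP57 is one, and recruits the histone methyltransferase SETDB1 and heterochromatin protein HP1, which leads to H3K9me3 and silencing. In ESCs it is best known for silencing endogenous retroviruses and other retrotransposons and, together with ZFP57, for keeping the methylated allele of imprinting control regions silent.

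The DNA under some of the peaks is shown here before the numbers. A first set of sequences is shown because the hexamer TGCCGC, which ZFP57 recognises when its CpG is methylated, also occurred in KAP1 peaks where no ZFP57 peak was called. The windows are 150 bases of mm9 around the closest couples of the hexamer outside annotated exons, Tmc2 at chr2:130019756-130019905 on the plus strand, 1700086D15Rik at chr11:64972218-64972367 on the plus strand, Pi4k2b at chr5:53133478-53133627 on the plus strand and Fbxw7 at chr3:84618567-84618716 on the plus strand. Capitals mark the hexamer in either direction, so that it reads GCGGCA where it lies on the minus strand. The starts of the couple lay 39 bp apart at *Tmc2*, 51 bp at *1700086D15Rik*, 83 bp at *Pi4k2b* and 91 bp at *Fbxw7*.
Tmc2: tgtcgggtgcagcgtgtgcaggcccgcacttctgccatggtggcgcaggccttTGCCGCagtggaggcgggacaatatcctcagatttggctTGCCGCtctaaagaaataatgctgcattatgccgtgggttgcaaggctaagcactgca
1700086D15Rik: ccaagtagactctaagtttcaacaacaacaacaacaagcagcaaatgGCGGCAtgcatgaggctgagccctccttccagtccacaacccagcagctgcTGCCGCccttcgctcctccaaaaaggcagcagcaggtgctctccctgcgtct
Pi4k2b: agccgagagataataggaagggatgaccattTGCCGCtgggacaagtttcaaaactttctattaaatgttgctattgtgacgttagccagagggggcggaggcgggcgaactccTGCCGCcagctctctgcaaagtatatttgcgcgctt
Fbxw7: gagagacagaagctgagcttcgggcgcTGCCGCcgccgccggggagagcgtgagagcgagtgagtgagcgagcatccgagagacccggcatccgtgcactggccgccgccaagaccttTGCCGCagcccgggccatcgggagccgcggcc

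A second set is shown because some of the peaks shared part of their sequence with each other. In the largest group, 9 peaks on chromosome 14 at predicted genes shared at least 25% of their 16 bp words with another peak of the group. The windows are 100 bases of mm9 outside annotated exons, Gm7954 at chr14:42266157-42266256 on the plus strand, Gm6401 at chr14:42546082-42546181 on the plus strand and Gm17027 at chr14:42740779-42740878 on the plus strand. Capitals mark a word of 16 bp present in 9 of these 9 peaks and at 41 places in mm9.
Gm7954: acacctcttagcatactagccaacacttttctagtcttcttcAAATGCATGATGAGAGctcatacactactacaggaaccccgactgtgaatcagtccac
Gm6401: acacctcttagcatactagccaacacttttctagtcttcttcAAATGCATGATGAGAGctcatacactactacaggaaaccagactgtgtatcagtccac
Gm17027: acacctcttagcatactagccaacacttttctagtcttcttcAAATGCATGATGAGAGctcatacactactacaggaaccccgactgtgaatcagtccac

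A group of 6 peaks was spread over chromosomes 6, 7, 8, 11 and 17. Its windows, Gm17462 at chr6:112389340-112389439 on the minus strand, Gm2783 at chr7:104423851-104423950 on the plus strand and Gm17558 at chr11:116652684-116652783 on the minus strand, carry in capitals a 16 bp word found in 4 of the 6 peaks and at no fewer than 255 places in mm9, the highest number counted. The 3 windows printed are the same letter for letter although they lie on different chromosomes.
Gm17462: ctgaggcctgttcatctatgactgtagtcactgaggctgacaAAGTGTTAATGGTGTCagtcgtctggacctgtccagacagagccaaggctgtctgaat
Gm2783: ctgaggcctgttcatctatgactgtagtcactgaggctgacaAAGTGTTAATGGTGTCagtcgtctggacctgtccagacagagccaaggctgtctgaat
Gm17558: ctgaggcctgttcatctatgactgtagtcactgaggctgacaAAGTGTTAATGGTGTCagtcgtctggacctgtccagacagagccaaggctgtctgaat

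A group of 5 peaks on chromosome 13 is shown because its repeated unit is recognisable. Its windows, Gm10139 at chr13:65612882-65612981 on the plus strand, Gm17353 at chr13:66008115-66008214 on the plus strand and Gm16512 at chr13:66222363-66222462 on the plus strand, carry in capitals a 16 bp word present in 5 of the 5 peaks and at no fewer than 255 places in mm9. The bases that end the capitals and follow them spell the linker that joins neighbouring C2H2 zinc fingers, the DNA-binding modules of KRAB zinc-finger proteins.
Gm10139: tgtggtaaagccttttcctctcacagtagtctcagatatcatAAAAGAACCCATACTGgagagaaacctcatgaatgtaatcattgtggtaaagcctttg
Gm17353: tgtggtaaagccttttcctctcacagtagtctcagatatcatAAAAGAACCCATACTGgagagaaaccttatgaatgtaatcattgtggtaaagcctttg
Gm16512: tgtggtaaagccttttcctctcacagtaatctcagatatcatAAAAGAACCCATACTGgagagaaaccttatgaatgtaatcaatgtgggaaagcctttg

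The position of the peaks relative to the gene start was free within the limit of 1000 bp. Of the 539 peaks, 229 (42.5%, exact 95% interval 38.3 to 46.8) contained the start itself. The centre of the peak lay within 250 bp of the nearest start in 202 peaks (37.5%) and within 500 bp in 322 peaks (59.7%). The centre was upstream of the start in 229 peaks (42.5%), and the median centre was 77.5 bp downstream, with quartiles at -312.5 bp and 447 bp relative to the start, negative upstream. The most filled bin of 250 bp was the one just downstream of the start, with 126 peaks, followed by the one just upstream, with 76. All intervals cover counting error only, and peaks are not independent replicates of a line.

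**Figure D1:**
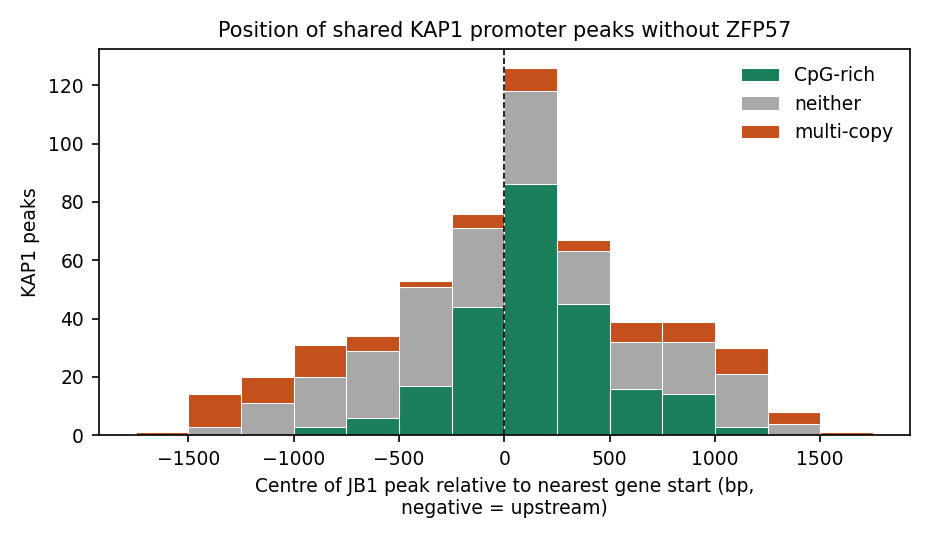
Number of the 539 KAP1 peaks by the distance of the peak centre from the nearest gene start in bp, in bins of 250 bp, with negative values upstream of the start (dashed line). Colours give the kind of sequence, with multi-copy first where a peak was of both kinds. CpG-rich peaks pile up from 250 bp upstream to 500 bp downstream of the start, and multi-copy peaks are spread over the whole range.

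By the annotation, 212 peaks (39.3%) overlapped coding sequence by at least 1 bp. Of the others, 130 (24.1%) overlapped a UTR, 10 another exon, 71 (13.2%) only an intron and 116 (21.5%) no gene. These shares are of all 539 peaks, each counted once in this order. The 539 peaks lay at the starts of 570 genes, which is 2.66% of the 21418 autosomal protein-coding genes. A KAP1 peak of any kind was within 1000 bp of the start of 3.27% of the genes in JB1 (701 genes) and of 12.5% in BJ1 (2680 genes). At 25 peaks (4.64%, 3.02 to 6.77) the starts of a pair of genes transcribed away from each other were within reach. Of the 570 gene starts, 48 (8.42%, 6.27 to 11.0) had a divergent partner within 1000 bp, beside 7.30% of all gene starts, so the share was near that of genes in general.

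Some of the divergent pairs are given here as examples, chosen after their values were seen. *Lats1*, a kinase of the Hippo pathway, and *Pcmt1*, which repairs damaged aspartyl residues of proteins, shared a peak at chr10:7400401-7401000 that was 600 bp wide in both lines, with a GC content of 60.8% and a CpG ratio of 1.03. *Mgat2*, an enzyme of N-glycan synthesis, and *Rpl36al* shared one of 600 bp in JB1 and 750 bp in BJ1. Other pairs were *Safb* and *Safb2*, which encode scaffold attachment factors, *Banf1* and *Eif1ad*, and *Psma7* and *Ss18l1*. Of the 25 divergent peaks, 17 were CpG-rich and 0 were multi-copy, in the sense given next.

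Sequence was not used to choose the regions. A peak was called CpG-rich where its GC content was above 50% and its ratio of observed to expected CpG above 0.6, the usual marks of a CpG island. It was called multi-copy where at least 50% of its 16 bp words occurred at least 10 times in mm9, which is the case for the interspersed repeats and duplicated genes that make up much of the genome. Of the 539 peaks, 237 (44.0%, 39.7 to 48.3) were CpG-rich, 84 (15.6%, 12.6 to 18.9) were multi-copy, 3 were both and 221 (41.0%) were neither. The multi-copy share depends on thresholds chosen after seeing the data, and was 25.6% with 25% of the words, 8.35% with 75% and 23.6% with 5 copies in place of 10. The median GC content was 56.0% (quartiles 48.0 and 63.7, range 35.8 to 78.0) and the median CpG ratio 0.580 (quartiles 0.323 and 0.785).

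**Figure D2:**
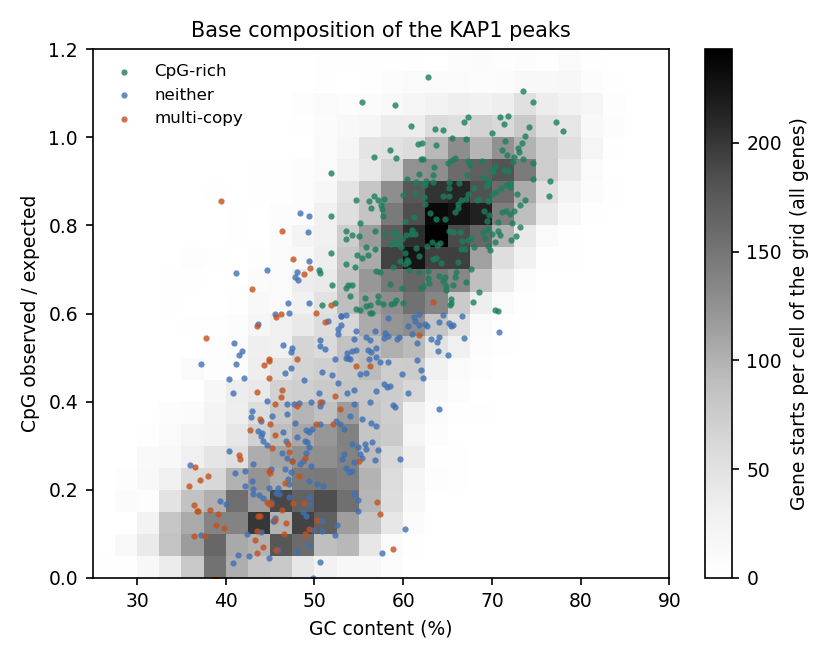
GC content in % (horizontal axis) and ratio of observed to expected CpG (vertical axis) of each of the 539 KAP1 peaks, over the density of the 600 bp around all 21418 autosomal protein-coding gene starts (grey). CpG-rich peaks lie on the upper cloud of promoters, and most multi-copy peaks lie below a CpG ratio of 0.6 and below 50% GC.

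Among the 600 bp around all 21418 gene starts, 48.0% were CpG-rich and 4.24% multi-copy, so that the peaks had a like share of CpG-rich sequence and a higher share of multi-copy sequence than gene starts. Many peaks lay off the start, however, where promoters are poorer in CpG. With 600 bp windows taken at the same distances from all gene starts as the peaks had from theirs, 28.5% of the promoter windows were CpG-rich, beside 239 of the 539 windows centred on the peaks (44.3%, 40.1 to 48.6), and 6.11% were multi-copy, beside 86 of the peak windows (15.96%, 12.96 to 19.32). The promoter windows were classed with the thresholds of 50% and 10 copies only. A comparison added after seeing the data left predicted genes out of both. Predicted is here a label for genes named Gm with a number or ending in Rik, and says nothing of the evidence for their transcripts. Of 436 peak windows, 35 (8.03%, 5.65 to 11.0) were then multi-copy, beside 3.18% of the windows at the same distances from the other 18186 gene starts. CpG-rich were 222 of the 436 (50.9%, 46.1 to 55.7), beside 32.3%. In the bin from the start to 250 bp downstream, 88 of 126 peak windows were CpG-rich, beside 49.4% of promoters. From 250 to 500 bp downstream, 46 of 67 were CpG-rich, beside 41.7%, and in the 250 bp upstream of the start 44 of 76, beside 42.8%. Farther upstream it was 17 of 53 beside 19.05% from 500 to 250 bp and 7 of 34 beside 8.03% from 750 to 500 bp. Farther downstream it was 16 of 39 beside 24.0% from 500 to 750 bp and 14 of 39 beside 11.8% from 750 to 1000 bp. In each of these 7 bins the share of CpG-rich windows was higher at the peaks than at promoters. In the 7 outer bins, with from 0 to 3 CpG-rich windows each, it was higher in 4 and lower in 3, such as 0 of 8 beside 4.41% from 1250 to 1500 bp downstream.

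Shared KAP1 peaks without ZFP57 away from gene starts had another makeup. Of 5670 shared gene-body peaks without ZFP57, 5.87% were CpG-rich and 60.2% multi-copy, and of 19672 shared intergenic peaks 4.82% were CpG-rich and 82.4% multi-copy. Their median GC contents were 46.9% and 46.3%. The intervals of these shares did not overlap those of the promoter peaks, and since 48.0% of all gene starts are CpG-rich, the contrast is also one between promoters and other sequence. KAP1 promoter peaks found in BJ1 but not in JB1 (n = 1954) were 48.4% CpG-rich and 6.70% multi-copy, and those found in JB1 but not in BJ1 (n = 64) were 45.3% CpG-rich and 15.6% multi-copy. Shared promoter peaks that did carry ZFP57 (n = 51) were 15.7% CpG-rich (7.02 to 28.6) and 49.0% multi-copy (34.8 to 63.4), the reverse of the order in the 539 peaks.

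**Figure D3:**
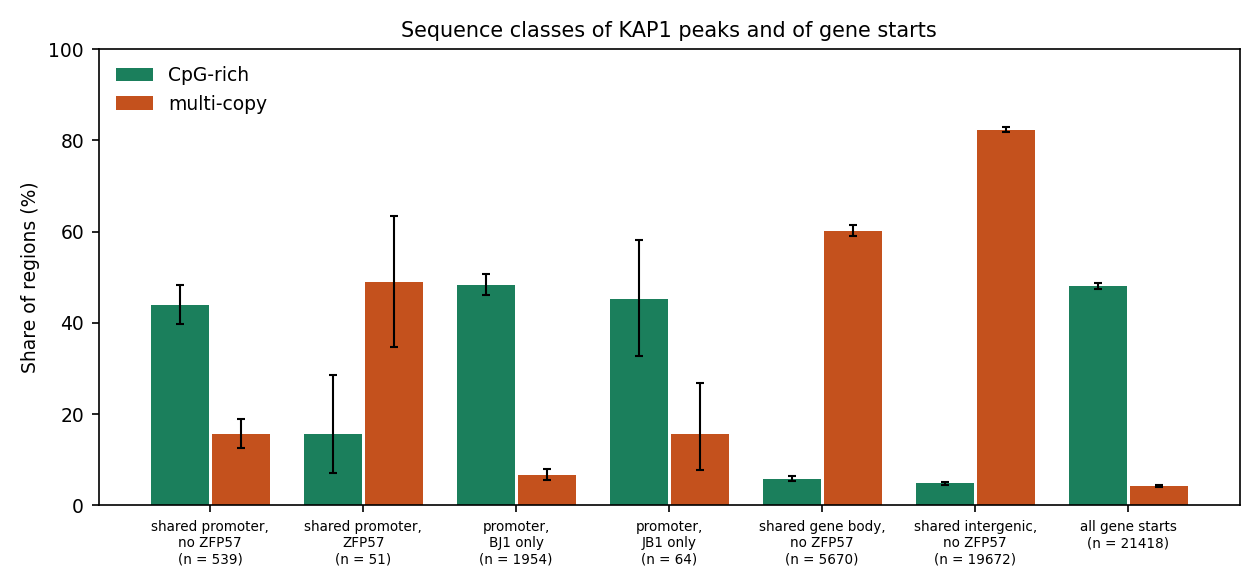
Share in % of CpG-rich and of multi-copy regions among the 539 shared KAP1 promoter peaks without ZFP57, 5 other classes of KAP1 peaks and the 600 bp around all gene starts, with the number of regions under each class. Bars start at 0 and error bars are exact 95% intervals, which cover counting error only. The 539 peaks have 44.0% CpG-rich and 15.6% multi-copy regions, and the gene-body and intergenic peaks have mostly multi-copy regions.

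The CpG-rich peaks sat on the gene start more often than the rest. Of 237, 140 (59.1%, 52.5 to 65.4) contained the start and 72 (30.4%) had their centre upstream, beside 72 of 221 (32.6%) and 115 (52.0%) for peaks of neither kind. The peaks with the highest CpG ratio, also looked at after their values were seen, were at *Chic2* (1.14), *Hnrpll*, a regulator of alternative splicing (1.11), *Coq3*, a methyltransferase of coenzyme Q synthesis (1.08), the phospholipase gene *Ddhd1* (1.08) and *Utp3*, which acts in ribosomal RNA processing (1.07). They were between 450 and 600 bp wide in JB1 and between 750 and 1050 bp in BJ1.

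The multi-copy peaks lay on the start less often and at predicted genes more often than the CpG-rich peaks. Of 84, 18 (21.4%, 13.2 to 31.7) contained the start, and 51 (60.7%, 49.5 to 71.2) were at predicted genes, beside 17 of 237 CpG-rich peaks (7.17%, 4.23 to 11.2). Promoters in general had a like gradient in position. Of the windows at all gene starts, 4.25% were multi-copy in the 250 bp upstream of the start. It was 13.1% from 1500 to 1250 bp upstream and 7.61% from 1250 to 1500 bp downstream. Over all 539 peaks, 103 (19.11%) were at predicted genes, beside 15.1% of all protein-coding genes. Of these 103, 51 (49.5%) were multi-copy, beside 33 of the 436 at other genes (7.57%). The multi-copy peaks had a median GC content of 45.6% and a median CpG ratio of 0.268, while those of the CpG-rich peaks are set by their definition. Reads of 50 bp may match several places in such sequence. How such reads were placed is not given in the sources used here, and its part in these peaks was not tested.

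The zinc-finger linker was searched by its codons on both strands, and 9 of the 539 peaks (1.67%, 0.766 to 3.15) held it. Among the 51 shared promoter peaks with ZFP57 it was 1 (1.96%, 0.0496 to 10.4), so these classes did not differ beyond their intervals. It was 28 of the shared gene-body peaks (0.494%), 63 of the shared intergenic peaks (0.320%), 2 of the 1954 promoter peaks found in BJ1 only (0.102%), 0 of the 64 found in JB1 only and 39 of the 600 bp windows at all gene starts (0.182%). Whole peaks were searched, up to 2550 bp wide among those with a linker, so the fixed windows are shorter than several of them. The peaks at *Gm10330* and *Gm17449* held 18 linkers each, *Gm16512* 17, *Gm10139* 15, *Gm10772* 12, *Gm17353* 10, *Zfp125* 8, *Gm17655* 5 and *Ankrd33b* 1. Apart from the single match at *Ankrd33b*, these are runs of linkers, such as a zinc-finger coding exon holds. Of the 9 peaks, 8 were multi-copy, and the 5 peaks of the chromosome 13 group were among them.

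Of the 5 chromosome 13 peaks, 4 were among the 10 widest by the sum of both lines. At *Gm16512* (chr13:66222001-66224550) the peak was 2550 bp wide in JB1 and 4050 bp in BJ1, with a GC content of 36.4%. At *Gm10139* (chr13:65612851-65614650) it was 1800 bp in JB1 and 3300 bp in BJ1. At *Gm17353* it was 1950 bp in JB1 and 3150 bp in BJ1, at *Gm17449* 2550 bp and 2700 bp, and at *Gm10772* 1650 bp and 1350 bp. All but *Gm17353* of these peaks contained a gene start.

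Some stretches of the genome held runs of at least 5 of the 539 peaks with successive peaks less than 500 kb apart. From chr13:65361451 to chr13:66329100, a stretch of 968 kb with 9 gene starts, there were 5 peaks, all multi-copy. From chr14:42265801 to chr14:44505450, 2240 kb with 50 gene starts, there were 10, also all multi-copy and at predicted genes such as *Gm7954*, *Gm6401* and *Gm3072*, with median widths of 675 bp in JB1 and 750 bp in BJ1. From chr17:35137051 to chr17:36158250, 1021 kb with 69 gene starts in the major histocompatibility complex, there were 7, of which 2 were multi-copy and 2 CpG-rich, at *Vars*, the valyl-tRNA synthetase gene, *Ly6g6e*, the class I genes *H2-Q7* and *H2-T24*, *Sfta2*, *Gm20508* and *Gm17579*. In all, 22 peaks lay in these runs. The groups that share 16 bp words, at the limit of 25% given above, numbered 13 and held 43 peaks. By chromosome, the peaks ranged from 14.8 per 1000 protein-coding genes on chromosome 16 to 40.6 on chromosome 18, and on chromosome 14, with 34.6, 14 of 33 peaks were multi-copy.

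The lists give no height or score, and the width of a peak, in steps of 150 bp, is the only measure of its size. In JB1 the 539 peaks had a median width of 600 bp (quartiles 450 and 750, range 300 to 2700, mean 624 ± 290 SD over peaks), and 449 (83.3%) were 450 to 750 bp wide. The BJ1 widths, summed for the 3 peaks that overlapped 2 BJ1 peaks, had a median of 750 bp (quartiles 600 and 1050, range 300 to 4350). The BJ1 peak was wider in 386 pairs (71.6%, 67.6 to 75.4), equal in 121 (22.4%) and narrower in 32 (5.94%), with a median difference of 150 bp. The JB1 peak lay wholly inside the BJ1 peak in 484 cases (89.8%), and in 110 cases (20.4%) the calls had the same start and end. Over the 539 pairs, which share their place in the genome, the widths in the lines had a Spearman rho of 0.396, given as a description.

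**Figure D4:**
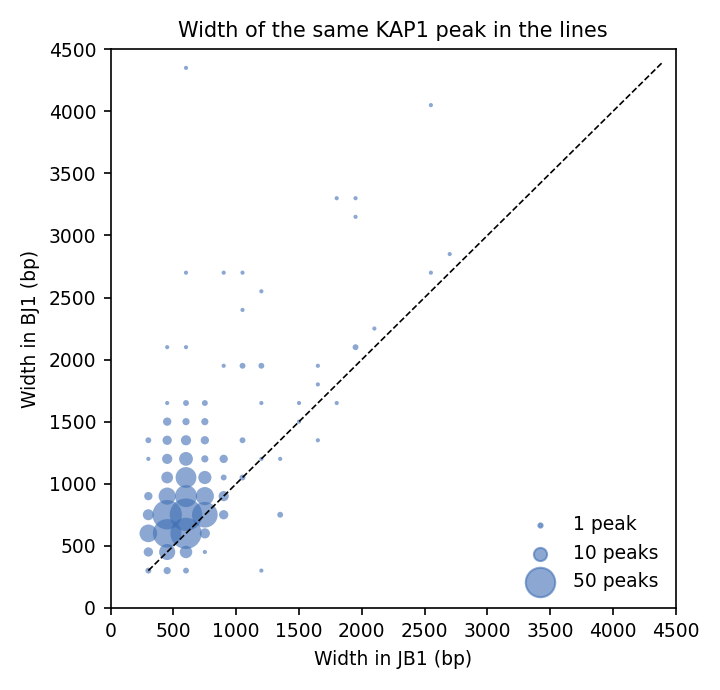
Width in bp of the 539 JB1 peaks (horizontal axis) and of the BJ1 peaks that they overlap (vertical axis), with the area of a point proportional to the number of peaks. Most points lie above the dashed line of equal width, and 386 of the 539 peaks are wider in BJ1.

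The BJ1 list was also longer as a whole, with 72535 KAP1 peaks over 57.7 Mb beside 38713 over 35.6 Mb in JB1. The ZFP57 lists went the other way, with 10667 peaks in JB1 and 1318 in BJ1. How deeply each library was sequenced cannot be read from the lists, and its part in the widths was not tested. The BJ1 peak was wider in 60.1% of the shared gene-body peaks and 56.1% of the shared intergenic peaks without ZFP57, and in 39.2% of the 51 shared promoter peaks with ZFP57. It was wider in 73.4% of the CpG-rich (67.3 to 78.9), in 63.1% of the multi-copy (51.9 to 73.4) and in 72.9% of the remaining promoter peaks, so the kinds of sequence did not differ beyond their intervals. A list cannot tell strong binding in few cells from weak binding in many, nor on which allele KAP1 was found.

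Of the 5 peaks with the largest excess of width in BJ1, 4 were at predicted genes. The peak at *Gm17448* was 600 bp in JB1 and 4350 bp in BJ1, neighbouring peaks at *Gm17462* of 600 and 1050 bp in JB1 were covered by a single BJ1 peak of 2700 bp, and the peak of 900 bp at *Gm17579* overlapped 2 BJ1 peaks of 2700 bp together. At *Syngr4*, a synaptogyrin gene that shares its promoter with *Tmem143*, the peak was 450 bp in JB1 and 2100 bp in BJ1, without being CpG-rich or multi-copy. In the other direction, the peak upstream of *Tmc2*, a channel gene of hair cells, was 1200 bp wide in JB1 and 300 bp in BJ1, and those at *Gm14226* and *Gm3072* were 1350 bp in JB1 and 750 bp in BJ1. At *Pde1a*, a calmodulin-dependent phosphodiesterase gene, it was 750 bp in JB1 and 450 bp in BJ1. Width and copy number went together. Of 51 peaks wider than 750 bp in JB1, 31 (60.8%, 46.1 to 74.2) were multi-copy, beside 53 of 488 narrower ones (10.9%, 8.24 to 14.0).

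Of the 10 widest peaks, *Atxn1l* was the one at a gene with a full name. Its peak, at chr8:112261801-112263750 upstream of the gene, was 1950 bp wide in JB1 and overlapped 2 BJ1 peaks of 3300 bp together, with 52.4% of its 16 bp words at 10 or more copies. The gene encodes a relative of ataxin-1 that acts as a transcriptional co-repressor. *Gm4782* had the widest JB1 peak of all, 2700 bp beside 2850 bp in BJ1, and was not multi-copy.

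How often a promoter peak of one line was found in the other follows from the rule and is given as a description. Of the 603 JB1 promoter peaks without ZFP57, 539 (89.4%) overlapped a BJ1 peak, beside 84.1% in gene bodies and 84.4% outside genes. From the BJ1 side, 564 of 2518 (22.4%) overlapped a JB1 peak, beside 31.4% in gene bodies and 45.3% outside genes. Among BJ1 peaks not found in JB1, 5.21% lay at promoters (1954 of 37521), beside 2.21% among the shared BJ1 peaks (564 of 25498) and the 2.19% of autosomal bases that a 600 bp peak could be centred on to lie within reach of a start. For BJ1 peaks of 300 to 449 bp, the share found in JB1 was 9.20% at promoters and 8.77% away from them. It was 8.38% and 18.9% at 450 to 599 bp, and 32.8% and 73.0% at 900 to 2999 bp. Of the BJ1 promoter peaks, 38.8% of the multi-copy, 21.8% of the CpG-rich and 19.8% of the other peaks were found in JB1.

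No ZFP57 peak touched the 539 peaks by the rule. The ZFP57 lists held 10667 peaks in JB1 and 1318 in BJ1. The lack of ZFP57 and the gaps to it therefore rest mostly on the JB1 list. No gap is given for other regions. The median gap to the nearest ZFP57 peak of either line was 106951 bp, from 301 to 2052901 bp. A ZFP57 peak lay within 1000 bp of 5 peaks and within 10000 bp of 52 (9.65%). The 5 nearest were multi-copy and at predicted genes, *Gm2783* at 301 bp, *Gm17462* at 451 and 751 bp, *Gm17579* at 751 bp and *Gm10772* at 901 bp. The median gap was 34426 bp for multi-copy peaks and 130201 bp for CpG-rich peaks. At 4 peaks, all multi-copy, the BJ1 peak reached a ZFP57 peak that the JB1 peak did not.

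The ZFP57 hexamer TGCCGC, searched on both strands wholly inside the peak, was in 149 of the 539 peaks (27.6%, 23.9 to 31.6). It occurred once in 109 peaks and more often in 40 (7.42%, 5.35 to 9.97). Of the 51 shared promoter peaks with ZFP57, 45 (88.2%, 76.1 to 95.6) had the hexamer and 24 (47.1%, 32.9 to 61.5) had it more than once. Whole peaks were searched, and these 51 peaks were wider, with a median of 1050 bp beside 600 bp. Among the 40 peaks without ZFP57 that had several, 9 had a couple with starts less than 38 bp apart. The variant GGCCGC was in 210 of the 539 peaks (39.0%) and one or the other in 277 (51.4%). The windows of the first set printed above thus come from peaks with the hexamer in more than 1 copy at which no ZFP57 peak was called.

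The highest number, 6 copies of TGCCGC in 600 bp, was at the start of *Ehd4* (chr2:119980051-119980650), a gene of endocytic trafficking, with a CpG ratio of 0.942. *Lcorl*, related to a nuclear receptor co-repressor, *Rab40c*, a small GTPase gene, and *Cdh2*, which encodes N-cadherin, had 4 copies each. All of these were CpG-rich. *Tmc2*, the first by position of the 7 peaks with 3 copies, was multi-copy, and the other 6, such as *Fbxw7*, *Kcnk3* and *Ahi1*, were CpG-rich. The nearest ZFP57 peak was 8401 bp from the *Lcorl* peak, 41851 bp from that of *Cdh2*, 62401 bp from that of *Ehd4* and 1345651 bp from that of *Rab40c*.

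Set beside windows at the same distances from all gene starts, several motifs were more frequent in the peaks. In 600 bp windows centred on the peaks, TGCCGC was in 27.3% (23.6 to 31.2) beside 18.5% of the promoter windows, GGCCGC in 40.8% beside 27.1%, and the GC box GGGCGGG, bound by SP1 and its relatives, in 35.6% beside 25.3%. The core GCATGCG of NRF1, ATGGCGG of YY1, CCGGAAG of ETS factors, TGACGTC of CREB and CACGTG, the E-box, differed from promoters by less than the interval of the peaks. CCAAT, read by NF-Y, was in 50.3% beside 53.5%, TATAAA in 19.7% (16.4 to 23.3) beside 24.8%, and ACTACAA, the start of the site of ZFP143, in 2.78% (1.57 to 4.55) beside 5.97%. The comparison depended on the position of the windows. In the 600 bp centred on all gene starts, TGCCGC was in 27.8%, GGCCGC in 41.9%, the GC box in 41.3% and TATAAA in 19.5%, so that against these the GC box was less frequent in the peaks (31.6 to 39.8) and the other 3 did not differ beyond the interval. Of the other 7 motifs, the ETS core was less frequent in the peaks with 10.4% (7.94 to 13.3) beside 15.7%, the YY1 core with 7.98% (5.83 to 10.596) beside 10.65% and ACTACAA with 2.78% beside 5.86%, and the other 4 did not differ beyond the interval. All were searched on both strands, and GGCCGC can overlap other GC-rich matches.

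**Figure D5:**
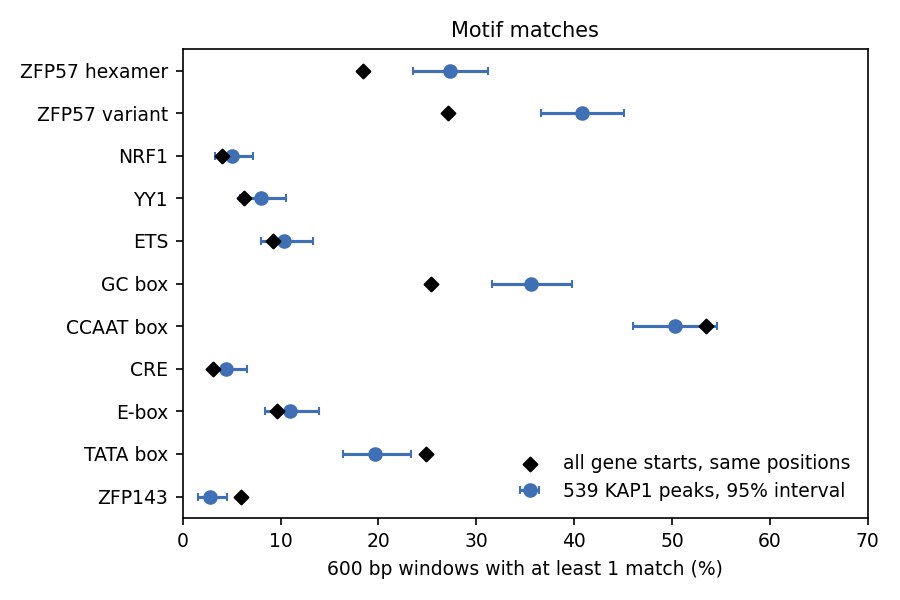
Share in % of 600 bp windows with at least 1 match to each of 11 motifs, for the 539 windows centred on the KAP1 peaks (circles with exact 95% intervals) and for windows at the same distances from all 21418 gene starts (diamonds). The circles of the ZFP57 hexamer, its variant and the GC box lie right of the diamonds, and those of the TATA box and ZFP143 left of them.

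The motifs that were more frequent all contain CpG, as do CpG-rich promoters. Among the 239 CpG-rich windows alone, TGCCGC was in 40.6% (34.3 to 47.1) beside 43.4% of CpG-rich promoter windows at the same distances, GGCCGC in 73.2% (67.1 to 78.7) beside 70.8% and the GC box in 57.7% (51.2 to 64.1) beside 60.5%. For all 3 motifs the interval of the peaks held the share of the promoters. TATAAA was in 7.95% (4.85 to 12.1) beside 7.90% and ACTACAA in 2.93% (1.19 to 5.94) beside 4.61%, and for these too the interval held the share of the promoters. A match describes the letters of mm9, the B6 genome, and is not a bound site.

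The genes at the peaks were set beside 20 gene lists, to be read against the 2.66% of all genes with such a peak. Of 382 zinc-finger genes numbered Zfp, Zkscan or Zscan, which include many KRAB zinc-finger genes, 14 (3.66%) had a peak, among them *Zfp125*, *Zfp738*, *Zfp771*, *Zfp329*, *Zfp60* and *Zscan30*. The *Zfp125* peak was 1050 bp wide in both lines and the *Zfp738* peak 750 bp in JB1 and 1200 bp in BJ1, and both were multi-copy. *Zfp329* had a peak of 750 bp on its start in both lines, with a GC content of 53.6% and a CpG ratio of 0.787. Of 31 genes of the KAP1 repressor and DNA methylation machinery and of 27 pluripotency genes, 0 had a peak. Any BJ1 KAP1 peak was at 3 (9.68%) and 4 (14.8%) of them, beside 12.5% of all genes. In lists this short, a count of 0 or 1 cannot be set apart from the share of all genes. The first list holds no TET gene, and *Tet3*, a methylcytosine dioxygenase gene picked out after its values were seen, had a peak of 450 bp in JB1 and 750 bp in BJ1.

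Of 42 imprinted genes, 1 had a peak, *Slc22a3*, an organic cation transporter gene, where the peak upstream of the start was 600 bp in JB1 and 750 bp in BJ1, with the nearest ZFP57 peak 219451 bp away. In all, 10 of the 42 imprinted genes (23.8%) had a JB1 KAP1 peak at the start, beside the 3.27% of all genes, and 8 had a JB1 ZFP57 peak, beside 115 of all 21418 genes. Of 25 germline genes silenced by methylation, 1 had a peak, *Dazl*, which encodes an RNA-binding protein of germ cells. That peak was 450 bp in JB1 and 600 bp in BJ1, with a GC content of 64.7%, and held GGCCGC 4 times and TGCCGC 0 times. Of 13 genes of the two-cell stage, 0 had one.

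Housekeeping lists held from 0 to 2 genes with a peak each, counts too small to set apart from the share of all genes. It was 0 of 78 cytosolic ribosomal protein genes, 0 of 87 genes of oxidative phosphorylation, 1 of 76 mitochondrial ribosomal protein genes (*Mrps6*, 1.32%), 1 of 64 translation factors (*Eif1ad*, 1.56%), 1 of 74 splicing genes (*Lsm7*, 1.35%) and 2 of 49 proteasome genes (*Psma7* and the assembly chaperone gene *Psmg2*, 4.08%). Of 56 genes of RNA polymerases and Mediator, 2 (3.57%) had a peak, and both encode subunits of RNA polymerase III. *Polr3a*, its largest subunit, had 600 bp in JB1 and 1050 bp in BJ1, and *Polr3g*, which shares its promoter with *Mblac2*, had 450 and 1200 bp. Of 53 cell cycle genes 1 had a peak, *Bub1b*, a kinase of the spindle checkpoint, and of 77 ubiquitin genes 1, *Ube2cbp*.

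Of 77 histone genes, 2 had one of the 539 peaks, *H3f3a*, one of the genes of the replacement histone H3.3, and *H2afj*. A JB1 KAP1 peak of any kind was at 2 of the 77 (2.60%), beside 3.27% of all genes, and a BJ1 KAP1 peak at 48 (62.3%), beside 12.5% of all genes. At *H3f3a* the peak was 750 bp in JB1 and 1050 bp in BJ1, with a GC content of 71.5% and TGCCGC in 2 copies. At *H2afj* it was 450 bp in JB1 and 1050 bp in BJ1. Both genes lie outside the replication-dependent histone clusters.

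Among gene families expressed in particular tissues, 3 of 1106 olfactory receptor genes (0.271%) had a peak, *Olfr1341*, *Olfr52* and *Olfr919*, each of the same width in both lines, 600, 450 and 300 bp. It was 1 of 92 keratin genes (*Krt84*), 1 of 24 clustered protocadherin genes (*Pcdhb7*, 600 bp in both lines) and 0 of 40 Hox genes. Beyond the lists, 107 of the 570 genes (18.8%, 15.6 to 22.2) had another shared KAP1 peak more than 1000 bp into the gene, beside 15.5% of all genes and 17.7% of genes of the same lengths. The genes with a peak were longer, with a median of 20875 bp beside 15535 bp.

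The limits of the rule cut through similar peaks. Just inside the width limit were *Gm4782* with 2700 bp, *Gm16512* and *Gm17449* with 2550 bp, *Gm17558* with 2100 bp and *Gm10330* with 1950 bp. The 6 peaks at or above it that met the rest of the rule included *Gm10595* with 3000 bp, *4930425F17Rik* and the homeobox gene *Obox2* with 3150 bp, *3110070M22Rik* with 3600 bp and *Orc2*, which encodes a subunit of the origin recognition complex, with 4350 bp. Just inside the distance limit were *Dld* at 999 bp, *Adss* at 992 bp, *Gm3020* at 991 bp, *Vgll4* at 989 bp and *Acsm3* at 987 bp. Just outside were *Tox* at 1004 bp, *Mpdu1* and *Epha5* at 1007 bp, *Olfr784* at 1010 bp and *Ccdc64* at 1021 bp.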

How the data were processed

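Single-end reads of 50 bp were trimmed and filtered by the authors (CASAVA 1.8.2, Trim Galore) and mapped to mm9 by Bowtie 0.12.7 with up to 2 mismatches. MACS peaks with a *P*-value below 1e-05 were kept by them, separately for each library. SAMtools 0.1.18 and bedtools 2.14.3-1 are named in the submitters' processing notes. The 4 deposited peak lists give positions only, counted from 1 on a grid of 150 bp, with no score, read count or depth. The narrowest peaks are 300 bp.

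Overlaps needed 1 bp. Gene starts are those of 21418 autosomal protein-coding genes of GENCODE M1, and sequence is that of mm9. Words of 16 bp were counted on both strands of the autosomes, X and Y of mm9 up to a cap of 255. For promoters at the same positions, 600 bp windows were taken at all gene starts and weighted by the offsets of the peaks in bins of 250 bp. Intervals are exact Clopper-Pearson 95% intervals. Selection and word counts were tested on simulated data. Python 3.11.15 was used with numpy 2.4.6, pandas 2.3.3, scipy 1.17.1, pysam 0.24.0, numba 0.67.0 and matplotlib 3.10.9.

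The regions, gene lists and motifs were chosen with earlier results of these data known. Genes were named by fixed rules, the 10 widest peaks, the 5 nearest each limit, the 5 with the largest width difference each way, the 5 with most TGCCGC, the 5 nearest to ZFP57 and list members with a peak (at most 12, otherwise the 6 widest). Genes named for CpG ratio, divergent starts, linkers, runs, shared words or printed windows were chosen after their values were seen.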

Additional observations from a re-analysis of the deposited data

How the results depend on the processing

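Each of 8 results was recomputed with another overlap, distance, gene start, width, ZFP57 or coordinate rule. The number of peaks was 539 with an overlap of 50%, 414 within 500 bp, 804 within 2000 bp, 770 with any transcript start, 330 with the widest 50% of each KAP1 list, 534 without ZFP57 within 1000 bp, 564 with BJ1 coordinates and 545 without a width limit. The share of peaks containing a start was 55.3% within 500 bp, 28.5% within 2000 bp, 47.3% with the widest 50% and 52.8% with BJ1 coordinates. The share with TGCCGC was 31.9% within 500 bp and 35.3% with BJ1 coordinates, whose peaks are wider. Thresholds chosen after seeing the data moved the multi-copy share to 25.6% with 25% of the words, 8.35% with 75%, 23.6% with 5 copies, 11.1% with 25 copies and 7.57% without predicted genes. They moved the CpG-rich share to 50.5% without predicted genes and 35.8% with GC above 55% and a ratio above 0.65. In 600 bp windows without predicted genes they were 8.03% and 50.9%. Medians moved by less than 1 SD over the peaks, the CpG ratio to 0.473 and GC to 52.3% within 2000 bp and the ratio to 0.507 with any transcript start. In all, 16 values moved beyond the interval of a share or, for the number of peaks, by over 1.5 times. No paired analysis was possible because each line and antibody has 1 library and no result comes from a test across samples. The lists hold no read counts, so a peak missing from a list is not shown to be absent.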
